A study of Homo sapiens with 6 samples.

Results

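The aminoacyl-tRNA synthetases, the enzymes that join each amino acid to its tRNAs, were followed in CWR-R1 prostate cancer cells with and without SOX2. The members are 35 named genes, 19 for cytosolic enzymes (or subunits of them) and 16 for mitochondrial enzymes. They were picked by name, and all 35 were found among the 16949 genes of the table and passed the filter of a mean of at least 1 CPM (counts per 1000000 of a library). CWR-R1 is an established cell line from a castration-resistant human prostate cancer. SOX2-KO cells, labelled SOX2 negative, gave 3 RNA-seq libraries, and Control cells, labelled SOX2 positive and called untreated in the sample titles, gave the other 3. Nothing in the sources used here says how SOX2 was removed, if the knockout line is clonal, or if each library came from its own culture. The p-values therefore measure the spread among libraries, part or all of which may be technical. Values of a group are given in the order of replicates 1, 2 and 3.

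A synthetase activates its amino acid with ATP and transfers it to the matching tRNA, and the charged tRNA is then carried to the ribosome by an elongation factor. Human cells keep separate sets for the cytosol and for mitochondria, all encoded in the nucleus. GARS1 and KARS1 serve both compartments from a single gene, and mitochondrial glutamine tRNA is charged by a detour in which EARS2 first adds glutamate. Uncharged tRNA activates the kinase GCN2 and, through it, translation of ATF4, a transcription factor that raises many cytosolic synthetase genes in amino acid shortage.

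The 6 libraries held 20717788 to 25739759 reads on the listed genes, as estimated from the steps between low CPM values. The lowest value of any member, that of PARS2 in SOX2-KO replicate 2, stood for 178 reads. SOX2 itself had 4.696, 4.56 and 3.83 CPM in SOX2-KO and 55.7, 54.3 and 55.5 CPM in Control, so the label of every library held. The prostate epithelial genes KRT8, KRT18, EPCAM and HOXB13 were present in all libraries, at mean levels of 22.1 to 948 CPM in SOX2-KO and 13.1 to 1034 CPM in Control. The protein-coding genes of mitochondrial DNA made up 1.35%, 1.302% and 2.74% of the CPM in SOX2-KO and 2.698%, 2.46% and 2.51% in Control. By that share SOX2-KO replicate 3 stood apart from its group, and without it 10 cytosolic and 10 mitochondrial synthetase genes were called, beside 55.8% of all genes tested (23.4% higher and 32.5% lower).

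Synthetase genes changed in both directions and mostly by little. Of the 35 genes, 14 rose and 8 fell in SOX2-KO (limma on log2(CPM + 1), Benjamini-Hochberg adjusted p under 0.05 over the 15927 genes tested). Such calls were made for 57.8% of all genes tested, 25% higher and 32.9% lower. The 19 cytosolic genes split into 6 that rose, 5 that fell and 8 not called, a share called of 57.9%, at the background. Of the 16 mitochondrial genes, 8 rose, 3 fell and 5 were not called, a share of 68.8%. Median log2 fold changes were −0.039 for the cytosolic and 0.078 for the mitochondrial genes, beside −0.057 over all genes tested. In 24 of the 35 genes the SOX2-KO and Control values did not overlap, with SOX2-KO values all above in 15 and all below in 9, beside 64.5% of all genes tested, 28.2% above and 36.3% below. When the median change of the 25 nearest genes on each side was taken off, 6 cytosolic and 9 mitochondrial genes were called higher, and 2 and 1 lower. Of all genes tested that way 55.6% were called, 27.9% higher and 27.7% lower.

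Only 4 members differed by 1.5-fold or more in mean CPM, GARS1, QARS1 and FARS2 upward and MARS1 downward, while 23.9% of all genes tested did. For 24 of the 35 the means of the groups lay within 1.25-fold of each other, as they did for 50.8% of all genes tested. Control means of the members ran from 9.83 to 811 CPM, and neither share was computed for genes of like level. The cytosolic genes together made up 5864, 6281 and 6084 CPM in SOX2-KO and 5983, 6046 and 5991 CPM in Control, and these sums overlapped between the groups. The mitochondrial genes together gave 803, 772 and 752 CPM in SOX2-KO and 722, 732 and 698 CPM in Control, and all 3 SOX2-KO sums lay above all 3 Control sums. CPM are shares of a library, so a change in the total RNA of a cell would not show, and fewer cells with a transcript cannot be told apart from less of it per cell.

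**Figure D1:**
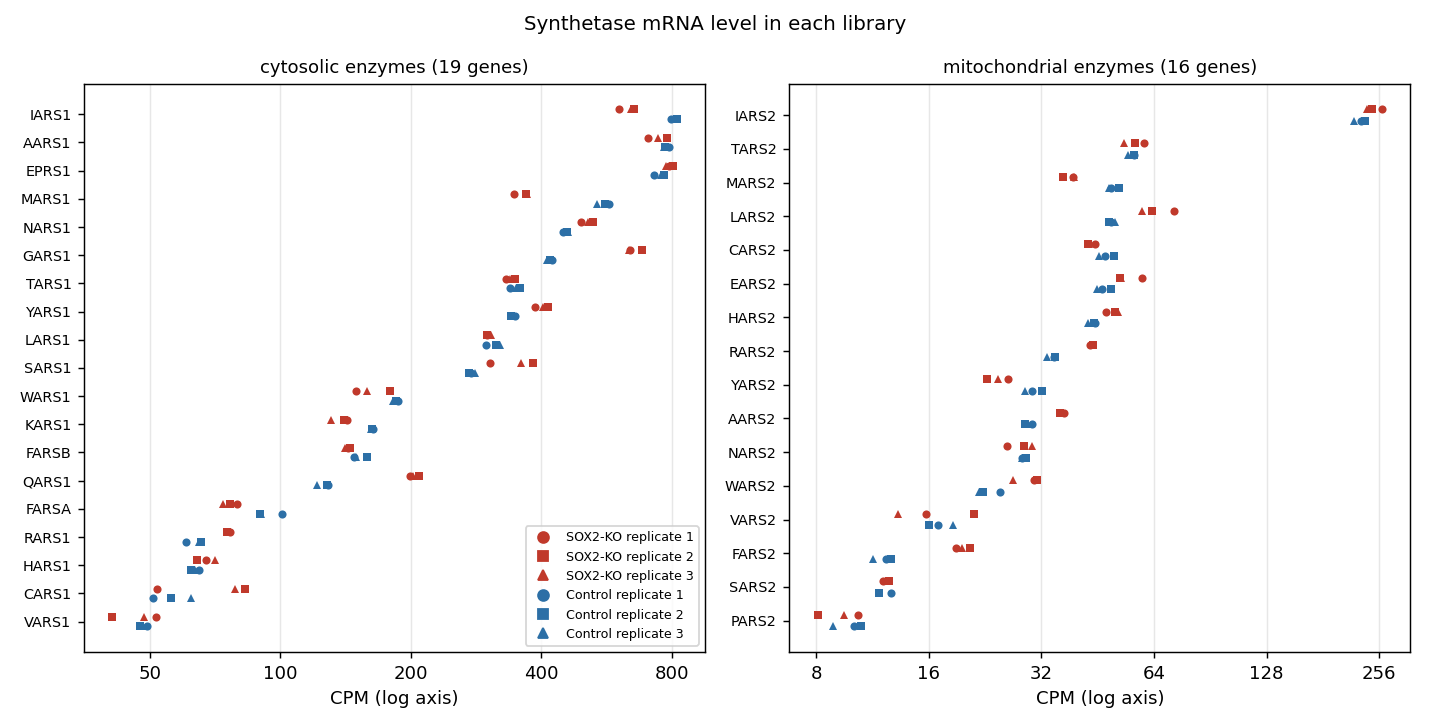
CPM (log axis) of the 19 cytosolic (left) and 16 mitochondrial (right) synthetase genes, ordered by Control mean; SOX2-KO libraries are red and lie above the blue Control libraries in each row, with 1 symbol per replicate. QARS1, GARS1 and FARS2 show red clear to the right of blue, MARS1 and IARS1 clear to the left, and most other rows lie close together.

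The cytosolic enzymes were the more abundant set. Per kilobase of the principal GENCODE 29 transcript, mean levels of the cytosolic genes ran from 10.9 (VARS1) to 249 (GARS1) CPM per kb in SOX2-KO and from 11.2 (VARS1) to 224 (AARS1) CPM per kb in Control. Mitochondrial genes ran from 3.96 (PARS2) to 69.6 (IARS2) CPM per kb in SOX2-KO and from 4.19 (PARS2) to 63.9 (IARS2) CPM per kb in Control. The medians were 72.05 and 12.1 CPM per kb for cytosolic and mitochondrial genes in SOX2-KO, and 80.9 and 11.6 in Control. GARS1 thus held the highest level per length in SOX2-KO, where AARS1 stood at 214 CPM per kb, and AARS1 in Control, where GARS1 stood at 159 CPM per kb.

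The cytosolic synthetases include many known targets of ATF4, which binds with C/EBP partners at the element TGATGNAA, often called CARE. This element was looked for on both strands in the RefSeq windows of 250 bases before to 50 bases after each gene start (GRCh38.p14), where 30 of the 35 members had a window. It was present in 8 of these 30 members, 7 of 16 cytosolic and 1 of 14 mitochondrial, and in 4.46% of the 27305 genes with a window. All 7 cytosolic genes belong to the 13 synthetases commonly listed as ATF4 targets, of which 10 had a window, and the element was in none of the 6 other cytosolic synthetases. It was also in 7 of 26 other ATF4 target genes with a window. Among lists described below, it was in 3 of 9 interferon-induced genes with a window. It was in 1 of 14 genes of eIF2 and its control and 1 of 5 of the selenocysteine route. For scaffolds of the synthetase complex it was 0 of 3, and for cytosolic and mitochondrial tRNA delivery 0 of 10 and 0 of 9. The stretches around it are printed because the element lies near the starts of genes that rose, fell and were not called. Capitals mark the element, which reads TTGCATCA or, in GARS1, TTTCATCA where it lies on the opposite strand. It begins 15 bases after the start of NARS1 and 3 after that of TARS1, and in the other 5 genes before the start, by 2 (CARS1) to 187 (AARS1) bases.
GARS1: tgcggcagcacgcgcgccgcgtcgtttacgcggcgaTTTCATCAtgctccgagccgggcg
NARS1: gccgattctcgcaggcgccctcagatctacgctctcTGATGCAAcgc
MARS1: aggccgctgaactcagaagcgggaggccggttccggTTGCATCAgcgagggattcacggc
IARS1: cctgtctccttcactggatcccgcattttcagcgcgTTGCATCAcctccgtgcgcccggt
AARS1: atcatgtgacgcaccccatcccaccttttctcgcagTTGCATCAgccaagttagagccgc
CARS1: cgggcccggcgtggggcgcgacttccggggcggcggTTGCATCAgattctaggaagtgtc
TARS1: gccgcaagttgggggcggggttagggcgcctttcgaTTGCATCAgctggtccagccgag
They lie at chr7:30594809-30594868 (plus strand), chr18:57621812-57621858 (minus strand), chr12:57488028-57488087 (plus strand), chr9:92293687-92293746 (minus strand), chr16:70289670-70289729 (minus strand), chr11:3057402-3057461 (minus strand) and chr5:33440931-33440989 (plus strand). Of these 7 genes, GARS1 and NARS1 rose, MARS1 and IARS1 fell, and AARS1, CARS1 and TARS1 were not called. The 8th member with the element is YARS2, a mitochondrial enzyme gene that fell. The E-box CACGTG, the site bound by MYC, was in 4 of the 30 members (IARS1, CARS2, EARS2 and MARS2) and in 8.78% of all genes with a window. A SOX element, AACAATG, was in 0 of the 30 and in 4.08% of all. A match of letters is no evidence of binding.

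Glycine and glutamine enzymes rose most among the cytosolic genes. GARS1, which charges glycine tRNA in both compartments, had 642, 683 and 639 CPM in SOX2-KO and 424, 420.2 and 414 CPM in Control. Every SOX2-KO value lay far above every Control value, a rise of 1.56-fold (log2 fold change 0.64 ± 0.041, adjusted p = 3.19e-06, standard error here and below). The gene lies on chromosome 7, positions 30594681 to 30634033 of GRCh38 (GENCODE 29), and the genes around it changed by a median of −0.065 on the log2 scale. QARS1, the glutamine enzyme of the multi-synthetase complex, had 199.6, 209 and 203 CPM in SOX2-KO and 129, 128 and 122 CPM in Control. The groups did not overlap, and the rise was 1.61-fold (log2 fold change 0.69 ± 0.04, adjusted p = 1.82e-06). QARS1 is on chromosome 3, positions 49095932 to 49105135, where the surrounding genes changed by a median of 0.021. Both calls held under every alternative tried.

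Serine, tyrosine, arginine and asparagine enzymes rose by less. SARS1, the serine enzyme, which also places serine on the tRNA for selenocysteine, had 305, 383 and 359.7 CPM in SOX2-KO and 276, 272 and 282 CPM in Control (1.26-fold higher, log2 fold change 0.33 ± 0.074, adjusted p = 0.00462). SOX2-KO replicate 1 was the lowest of its group and still above all Control values. YARS1, for tyrosine, had 387, 415 and 405 CPM in SOX2-KO and 348, 340.5 and 345 CPM in Control (1.17-fold higher, log2 fold change 0.22 ± 0.039, adjusted p = 0.00105). RARS1, for arginine, had 76.6, 75.3 and 75.4 CPM in SOX2-KO and 60.6, 65.8 and 64.8 CPM in Control (1.19-fold higher, log2 fold change 0.25 ± 0.045, adjusted p = 0.00134). NARS1, for asparagine, had 494, 526 and 513 CPM in SOX2-KO and 450.1, 459.8 and 461 CPM in Control (1.12-fold higher, log2 fold change 0.16 ± 0.039, adjusted p = 0.00667). For all 4 genes the groups did not overlap, and the changes were smaller than those of GARS1 and QARS1. With the neighbourhood taken off, SARS1 stood at log2 0.52 and YARS1 at 0.40, both still called. The genes around NARS1 on chromosome 18 changed by a median of 0.15, and with that taken off NARS1 was not called (adjusted p = 0.849, range over the alternatives 0.00211 to 0.849).

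The methionine enzyme fell most. MARS1, which charges both initiator and elongator methionine tRNAs in the cytosol, had 347, 368 and 372 CPM in SOX2-KO and 574, 563 and 538 CPM in Control. Control values were all far above SOX2-KO values, and the gene was 1.54-fold lower in SOX2-KO (log2 fold change −0.62 ± 0.044, adjusted p = 5.72e-06). MARS1 lies on chromosome 12, positions 57475445 to 57517569, and its neighbours changed by a median of −0.25. With that taken off it was still called lower (log2 −0.38, adjusted p = 2.29e-05, range over the alternatives 3.35e-06 to 0.000124). Its exons share bases with DDIT3, the gene of the stress factor CHOP, which lies on the opposite strand, over 355 bases or 5.05% of the exonic bases of MARS1. DDIT3, named here for its position after its values were seen, had 77.01, 106 and 105 CPM in SOX2-KO and 175, 175 and 176 CPM in Control. Both genes were lower in SOX2-KO. A further 519 exonic bases of MARS1 are shared with ARHGAP9, also on the opposite strand. Whether the authors' counting used strand is not given in the sources used here.

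Isoleucine, phenylalanine, lysine and tryptophan enzymes also fell. IARS1, for isoleucine, had 604, 656 and 645 CPM in SOX2-KO and 797, 824 and 811 CPM in Control (1.28-fold lower, log2 fold change −0.35 ± 0.044, adjusted p = 0.000148). FARSA, the catalytic subunit of the cytosolic phenylalanine enzyme, had 79.4, 76.6 and 73.5 CPM in SOX2-KO and 101, 89.5 and 90.2 CPM in Control (1.22-fold lower, log2 fold change −0.29 ± 0.056, adjusted p = 0.00214). The groups of both genes were apart, yet their neighbours on chromosomes 9 and 19 changed by medians of −0.26 and −0.27. With these taken off neither was called (IARS1 adjusted p = 0.09998, range over the alternatives 2.47e-05 to 0.09998, and FARSA adjusted p = 0.834, range 0.00161 to 0.834). KARS1, the lysine enzyme of both compartments, had 142, 140.5 and 131 CPM in SOX2-KO and 164, 163 and 162 CPM in Control. Its fall of 1.18-fold (log2 fold change −0.24 ± 0.042, adjusted p = 0.00105) held under every alternative, with neighbours at a median of 0.057. WARS1, the tryptophan enzyme, which interferon also induces, had 149.8, 179 and 159 CPM in SOX2-KO and 187, 184 and 182 CPM in Control (1.13-fold lower, log2 fold change −0.19 ± 0.061, adjusted p = 0.0274). Its groups did not overlap, but the call rested on nearly every library. It was lost on leaving out any except SOX2-KO replicate 2 (adjusted p = 0.0746, 0.0708 and 0.0556 without Control replicates 1, 2 and 3, 0.0721 and 0.0687 without SOX2-KO replicates 1 and 3, range over the alternatives 0.00186 to 0.14). It was also lost with median-ratio scaling (0.104), quantile normalisation (0.0702) and the neighbourhood taken off (0.14).

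The other 8 cytosolic genes were not called. AARS1, for alanine, had 704, 781 and 745 CPM in SOX2-KO and 791, 772 and 769 CPM in Control (log2 fold change −0.066, 95% interval −0.17 to 0.041). EPRS1, the fused glutamate and proline enzyme, had 788, 807 and 779 CPM in SOX2-KO and 730.3, 769 and 756 CPM in Control, with SOX2-KO values just above Control values (log2 fold change 0.075, 95% interval −0.017 to 0.17). LARS1, for leucine, which is also a leucine sensor for mTORC1, had 300.01, 300.4 and 307 CPM in SOX2-KO and 299, 315 and 322 CPM in Control (log2 fold change −0.044, 95% interval −0.13 to 0.047). These intervals exclude a change of 1.25-fold in either direction for the 3 genes. TARS1, for threonine, had 331, 349 and 339 CPM in SOX2-KO and 339.7, 357 and 351 CPM in Control (log2 fold change −0.039, 95% interval −0.13 to 0.049). FARSB, the other subunit of the phenylalanine enzyme, had 143, 145 and 141 CPM in SOX2-KO and 148, 158 and 149 CPM in Control, with SOX2-KO values just below Control values (log2 fold change −0.084, 95% interval −0.17 to 0.0059). HARS1, for histidine, had 67.2, 64.4 and 70.6 CPM in SOX2-KO and 64.8, 62.2 and 63.5 CPM in Control (log2 fold change 0.084, 95% interval −0.024 to 0.19). These 3 genes were as close between the groups, with the values of TARS1 and HARS1 overlapping. VARS1, for valine, had 51.6, 40.95 and 48.5 CPM in SOX2-KO and 49.1, 47.3 and 48.2 CPM in Control (log2 fold change −0.041, 95% interval −0.22 to 0.14), with SOX2-KO replicate 2 below and replicate 1 above all other libraries. EPRS1 was called higher with median-ratio scaling (adjusted p = 0.0444) and with the neighbourhood taken off (0.000453, range over the alternatives 0.000453 to 0.941). HARS1 was called higher with median-ratio scaling (0.028) and quantile normalisation (0.0343, range 0.028 to 0.427), and AARS1 lower with quantile normalisation (0.0153, range 0.0153 to 0.904).

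CARS1, the cysteine enzyme, was not called, and its SOX2-KO libraries were far apart. It had 51.8, 83.03 and 78.8 CPM in SOX2-KO and 50.9, 55.8 and 62.1 CPM in Control. SOX2-KO replicate 1 lay within the Control range, and the other two SOX2-KO libraries above it. The 95% interval of the log2 fold change ran from −0.05 to 0.67. Without SOX2-KO replicate 1 it was called higher (log2 0.52, adjusted p = 0.000674, range over the alternatives 0.000674 to 0.426).

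The same library was low for other genes of that kind, a pattern seen in the values and then counted. Of the 13 synthetases commonly listed as ATF4 targets, 10 had their lowest SOX2-KO value in replicate 1, as did 25 of 31 other ATF4 target genes, beside 42.1% of all genes tested. Among the 6 cytosolic synthetases not so listed (such as RARS1 and KARS1) it was 1. The median log2(CPM + 1) difference of replicate 1 from the mean of replicates 2 and 3 was −0.082 for the 13, −0.14 for the 31 and 0.011 for the 6, beside −0.026 over all genes tested. Single genes of the 13 ran from −0.63, the value of CARS1, to 0.21. Over all libraries the 13 split into 4 that rose, 3 that fell and 6 not called (median log2 −0.039), with 53.8% called beside 57.8% of all genes. Without SOX2-KO replicate 1, 5 of the 13 rose and 2 fell, and of all genes tested 55.1% were called, 24.4% higher and 30.7% lower. What set this library apart was not tested.

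**Figure D2:**
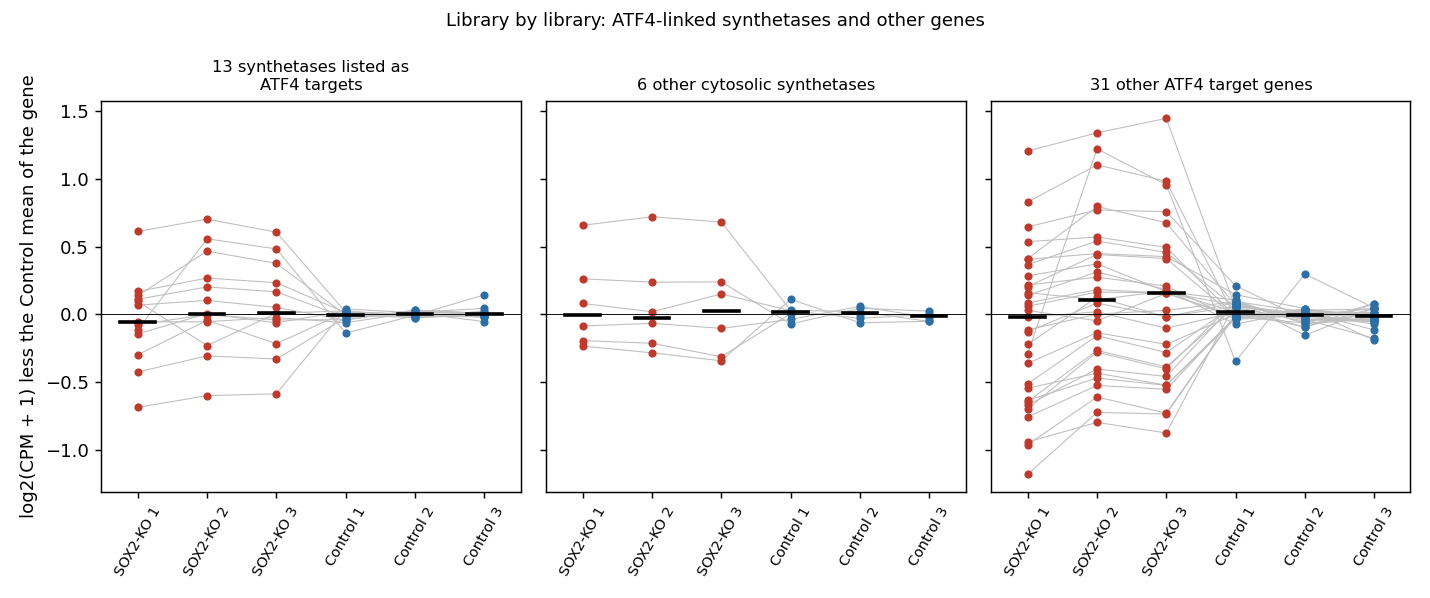
log2(CPM + 1) of each gene less its Control mean, in the SOX2-KO (red) and Control (blue) libraries, for 13 synthetases listed as ATF4 targets, 6 other cytosolic synthetases and 31 other ATF4 target genes; grey lines join the values of 1 gene and black bars are medians. In the outer panels SOX2-KO replicate 1 sits lower than replicates 2 and 3, with medians of −0.055, 0.0058 and 0.0087 for the 13 synthetases and −0.021, 0.11 and 0.16 for the 31 other targets in SOX2-KO replicates 1, 2 and 3, and genes of each list spread to both sides of 0 in SOX2-KO.

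Within the multi-tRNA synthetase complex, which gathers enzymes of several amino acids on scaffold proteins, the enzymes moved apart. Of its 7 enzymes among the members, QARS1 and RARS1 rose, MARS1, IARS1 and KARS1 fell, and EPRS1 and LARS1 were not called. That is 71.4% called, beside 57.8% of all genes. Their sum was 2458, 2556 and 2512 CPM in SOX2-KO and 2754, 2827 and 2775 CPM in Control, lower in every SOX2-KO library. MARS1 and IARS1 differed most in mean CPM among the 7, with 362 and 635 CPM in SOX2-KO and 558 and 811 CPM in Control. Their neighbours changed by medians of −0.25 and −0.26, and with these taken off IARS1 was not called. The sum is thus not a fall shared by all 7 enzymes. None of the 3 scaffold genes was called. AIMP1 had 122, 124 and 120.2 CPM in SOX2-KO and 120.2, 121 and 122 CPM in Control (log2 fold change 0.011, 95% interval −0.069 to 0.091), and AIMP2 had 82.5, 102 and 92.8 CPM in SOX2-KO and 93.7, 90.8 and 90.3 CPM in Control (log2 fold change 0.008, 95% interval −0.15 to 0.17). EEF1E1, the third scaffold, gave a log2 fold change of −0.10 (95% interval −0.25 to 0.058). With its neighbours' median of 0.21 taken off, EEF1E1 was called lower (log2 −0.30, adjusted p = 0.00365, range 0.00365 to 0.871).

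Synthetases fall into structural classes by the fold of their catalytic domain. Of 19 members of class I, 8 rose and 6 fell, and of 16 of class II, 6 rose and 2 fell. EPRS1, the fused glutamate and proline enzyme, holds a part of each class and was counted in class I only. Of the single enzymes, EARS2 for glutamate is of class I and PARS2 for proline of class II. These are 73.7% and 50% called, beside 57.8% of all genes. The class I genes summed to 3547, 3692 and 3611 CPM in SOX2-KO and 3751, 3831 and 3761 CPM in Control, lower in every SOX2-KO library. The class II genes summed to 3119.9, 3361 and 3226 CPM in SOX2-KO and 2954, 2948 and 2929 CPM in Control, higher in every SOX2-KO library. MARS1 and IARS1 of class I and GARS1 of class II differed most between the groups in mean CPM among the members. Their means were 362, 635 and 655 CPM in SOX2-KO and 558, 811 and 419 CPM in Control, in that order.

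Among the mitochondrial enzymes the phenylalanine enzyme FARS2 rose most. It had 18.95, 20.6 and 19.6 CPM in SOX2-KO and 12.3, 12.6 and 11.3 CPM in Control, with no overlap (1.63-fold higher, log2 fold change 0.66 ± 0.075, adjusted p = 7.78e-05). FARS2 spans chromosome 6, positions 5261044 to 5829192, and its neighbours there changed by a median of 0.35 on the log2 scale. With their median taken off it was still called (log2 0.31, adjusted p = 0.00542, range over the alternatives 3.28e-05 to 0.00542). LARS2, for leucine, had 72.4, 63.3 and 59.5 CPM in SOX2-KO and 49.2, 48.6 and 50.2 CPM in Control (1.32-fold higher, log2 fold change 0.39 ± 0.069, adjusted p = 0.00118). WARS2, for tryptophan, had 30.5, 31.1 and 26.9 CPM in SOX2-KO and 24.8, 22.3 and 21.8 CPM in Control (1.28-fold higher, log2 fold change 0.35 ± 0.077, adjusted p = 0.00414), and with its neighbours' median of −0.23 taken off it stood at 0.58. RARS2, for arginine, had 43.1, 43.8 and 44.1 CPM in SOX2-KO and 34.6, 34.7 and 33.2 CPM in Control (1.28-fold higher, log2 fold change 0.35 ± 0.047, adjusted p = 0.00025). In all of these the groups were apart, with SOX2-KO replicate 1 the highest of its group for LARS2.

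AARS2, EARS2, HARS2 and IARS2 rose as well. AARS2, for alanine, had 36.7, 35.96 and 36.3 CPM in SOX2-KO and 30.2, 28.8 and 29.3 CPM in Control (1.23-fold higher, log2 fold change 0.29 ± 0.05, adjusted p = 0.000881), where SOX2-KO replicates were close together. Its neighbours on chromosome 6 changed by a median of 0.26, and with these taken off it was not called (adjusted p = 0.613, range over the alternatives 0.00019 to 0.613). EARS2, for glutamate and, indirectly, glutamine, had 59.5, 52.05 and 52.3 CPM in SOX2-KO and 46.3, 49.1 and 44.9 CPM in Control (1.17-fold higher, log2 fold change 0.22 ± 0.064, adjusted p = 0.0166), a call lost without Control replicate 3 (adjusted p = 0.062, range 0.00528 to 0.062). In both genes the SOX2-KO libraries lay above the Control libraries. HARS2, for histidine, had 47.6, 50.4 and 51.3 CPM in SOX2-KO and 44.6, 44.3 and 42.7 CPM in Control (1.14-fold higher, log2 fold change 0.18 ± 0.049, adjusted p = 0.0122). IARS2, for isoleucine and the most abundant of the set, had 261, 245 and 237 CPM in SOX2-KO and 228, 234 and 219.8 CPM in Control (1.09-fold higher, log2 fold change 0.12 ± 0.046, adjusted p = 0.0487). The IARS2 call sat at the threshold and was lost without any of Control replicates 1, 2 and 3 (0.0877, 0.0608 and 0.164) or SOX2-KO replicates 1 and 2 (0.128 and 0.0816, range 0.000342 to 0.164). HARS2 and IARS2 values also did not overlap between the groups.

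MARS2, YARS2 and CARS2 fell. MARS2, the mitochondrial methionine enzyme, encoded by an intronless gene on chromosome 2, positions 197705369 to 197708387, had 38.9, 36.4 and 39.04 CPM in SOX2-KO and 48.98, 51.7 and 48.5 CPM in Control (1.304-fold lower, log2 fold change −0.37 ± 0.051, adjusted p = 0.000256). The groups were far apart and the neighbours changed by a median of 0.0037 on the log2 scale. The methionine genes MARS1 and MARS2 thus both fell, as the arginine genes RARS1 and RARS2 both rose. YARS2, for tyrosine, had 25.98, 22.8 and 24.4 CPM in SOX2-KO and 30.1, 32.2 and 28.9 CPM in Control (1.25-fold lower, log2 fold change −0.31 ± 0.069, adjusted p = 0.00439), and with its neighbours' median of −0.13 taken off it was not called (adjusted p = 0.0702, range 0.00308 to 0.0702). CARS2, for cysteine, had 44.5, 42.6 and 42.8 CPM in SOX2-KO and 47.3, 49.985 and 45.6 CPM in Control (1.101-fold lower, log2 fold change −0.13 ± 0.051, adjusted p = 0.0484). All SOX2-KO values of these 3 genes lay below the Control values. The CARS2 call was at the threshold and was lost without Control replicates 1 and 2 (0.0821 and 0.179) and without SOX2-KO replicates 2 and 3 (0.124 and 0.11), and the sign turned with the neighbours taken off (log2 0.11, adjusted p = 0.14, range 0.0426 to 0.356).

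NARS2, PARS2, SARS2, TARS2 and VARS2 were not called and their groups overlapped. NARS2, for asparagine, had 25.8, 28.8 and 30.1 CPM in SOX2-KO and 28.3, 29.03 and 28.3 CPM in Control (log2 fold change −0.017, 95% interval −0.17 to 0.13). TARS2, for threonine, had 60.03, 56.95 and 53.3 CPM in SOX2-KO and 56.7, 56.5 and 54.5 CPM in Control (log2 fold change 0.02, 95% interval −0.10 to 0.14). In both, the SOX2-KO values were spread around those of Control. PARS2, for proline, was the lowest member, with 10.3, 8.07 and 9.48 CPM in SOX2-KO and 10.1, 10.5 and 8.88 CPM in Control (log2 fold change −0.077, 95% interval −0.33 to 0.17). SARS2, for serine, had 12.1, 12.5 and 12.5 CPM in SOX2-KO and 12.6, 11.7 and 11.8 CPM in Control (log2 fold change 0.034, 95% interval −0.14 to 0.21). VARS2, for valine, had 15.7, 21.1 and 13.2 CPM in SOX2-KO and 16.9, 15.98 and 18.6 CPM in Control (log2 fold change −0.06, 95% interval −0.39 to 0.27), with SOX2-KO replicates 2 and 3 the highest and lowest of all. SARS2 and VARS2 are uncertain: 51.2% of the 31-base words of SARS2 transcripts also occur in transcripts of other genes, above all AC011455.2, and 22.9% of those of VARS2, above all its neighbour GTF2H4. With the neighbourhood taken off, SARS2 and TARS2 were called higher (adjusted p = 0.0207, range 0.0207 to 0.89, and 0.0068, range 0.0068 to 0.973).

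**Figure D3:**
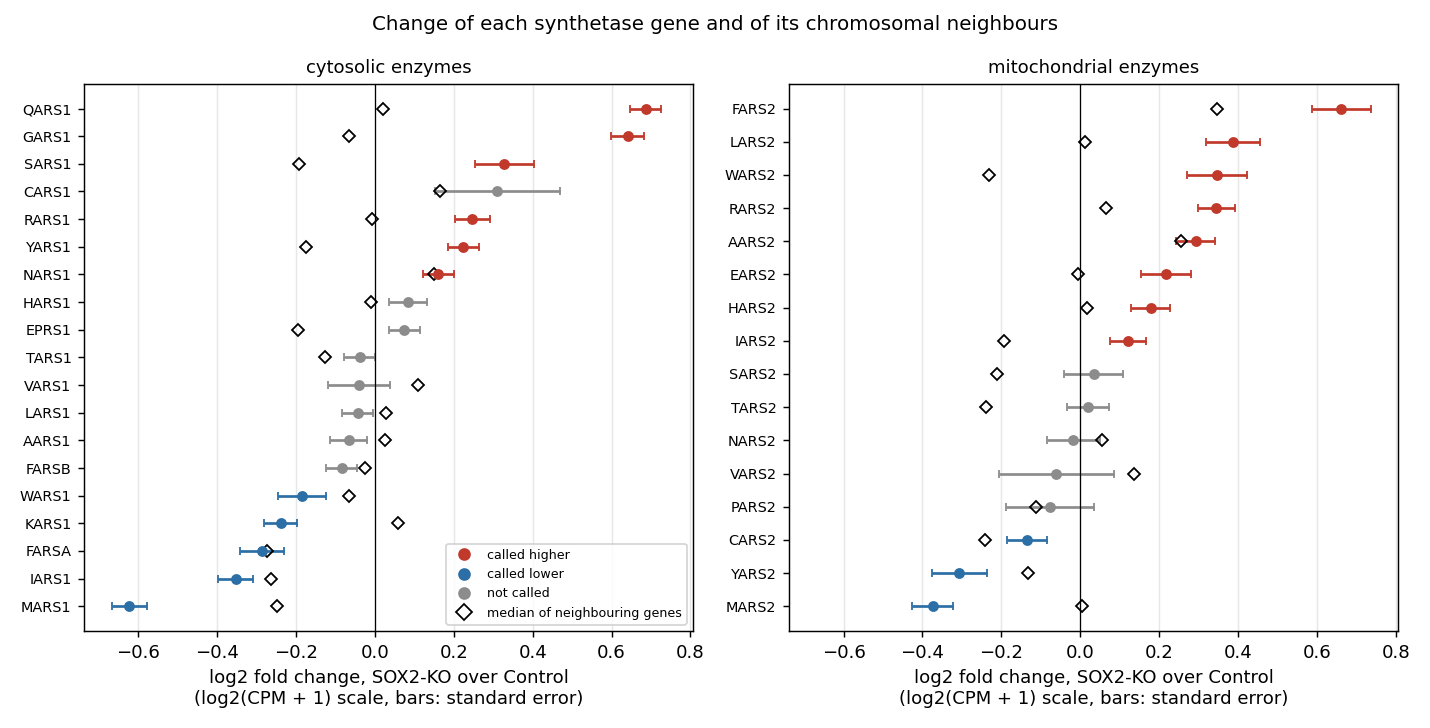
Log2 fold change of SOX2-KO over Control on the log2(CPM + 1) scale, with its standard error, for the cytosolic (left) and mitochondrial (right) genes, coloured by call; open diamonds are the median change of up to 25 tested genes on each side. Points of QARS1, GARS1 and MARS2 lie far from their diamonds, and those of FARSA, NARS1 and AARS2 on or next to them.

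The balance between the cytosolic and mitochondrial gene of an amino acid was apart between SOX2-KO and Control in 11 of 17 pairs, though no pair passed its test. Single genes were apart in this way for 64.5% of all genes tested, and no such share was computed for pairs of other genes. Several differences shrank when the change of neighbouring genes was taken off. The log2(CPM + 1) of the cytosolic gene less that of the mitochondrial gene was taken in each library for 17 pairs of 16 amino acids. The mean was lower in SOX2-KO, toward the mitochondrial gene, in 11 pairs and higher in 6. In 8 pairs all SOX2-KO values lay below all Control values, in 3 above, and in 6 they overlapped. The difference of SOX2-KO from Control was lowest for phenylalanine, where FARSA less FARS2 was 2.01, 1.84 and 1.86 in SOX2-KO and 2.94, 2.73 and 2.89 in Control. In that direction tryptophan was next, with WARS1 less WARS2 at 2.26, 2.49 and 2.52 in SOX2-KO and 2.86, 2.99 and 3.00 in Control. For isoleucine, leucine, alanine, methionine and glutamate, SOX2-KO values were also all below Control values. IARS1 less IARS2, as an example, was 1.21, 1.42 and 1.44 in SOX2-KO and 1.799, 1.81 and 1.88 in Control.

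Tyrosine, serine and asparagine went the other way, toward the cytosolic enzyme. YARS1 less YARS2 was 3.85, 4.12 and 3.997 in SOX2-KO and 3.48, 3.36 and 3.53 in Control, with the cytosolic gene higher and the mitochondrial gene lower in SOX2-KO. SARS1 less SARS2 and NARS1 less NARS2 averaged 0.29 and 0.18 higher in SOX2-KO than in Control. An exact two-sided permutation test over the 6 libraries cannot go below p = 0.1, which the 11 pairs without overlap reached, and adjusted over the 17 pairs this became 0.155. No pair therefore passed 0.05. EPRS1 and FARS2 each stand in 2 pairs. With the neighbourhood of both genes taken off, an alternative added after the data were seen, the mean was lower in SOX2-KO in 9 pairs and higher in 8. The difference of SOX2-KO from Control then was −0.33 for FARSA less FARS2, against −0.95 without that step. WARS1 less WARS2 then stood lowest, at −0.70, against −0.53. MARS1 less MARS2 came to 0.0021, against −0.25, and EPRS1 less EARS2 turned sign, to 0.048 against −0.14. NARS1 less NARS2 came to 0.084. Serine, tyrosine, leucine and isoleucine moved by less than the spread between replicates.

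**Figure D4:**
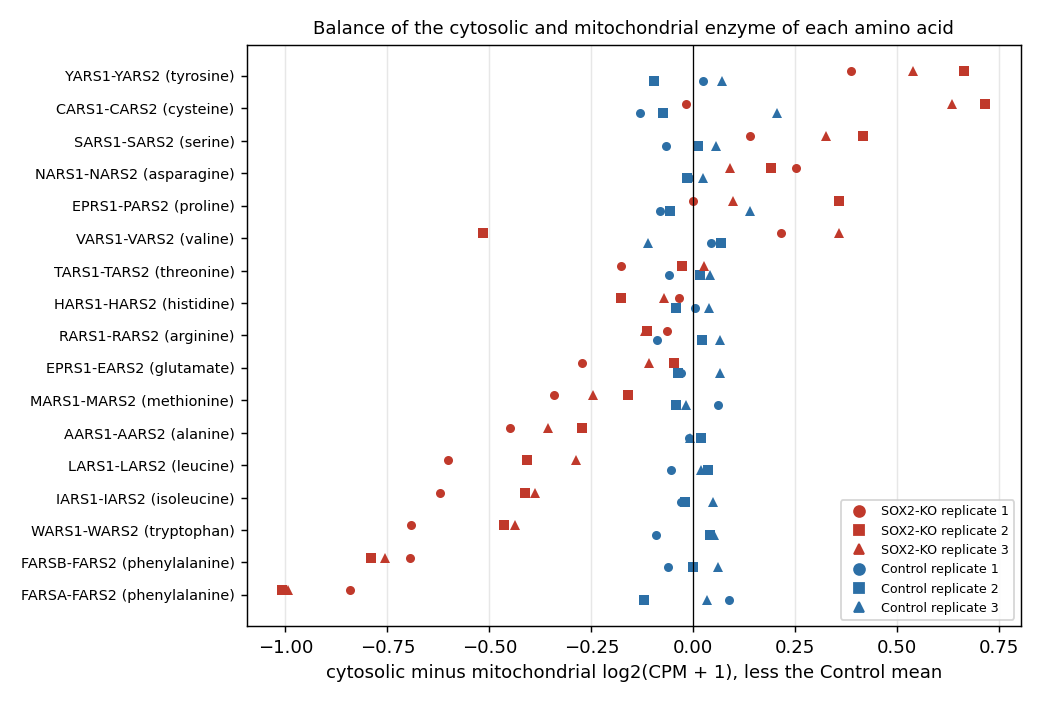
For 17 pairs, the log2(CPM + 1) of the cytosolic gene less that of the mitochondrial gene, shown relative to the Control mean, in each SOX2-KO (red) and Control (blue) library. Values left of 0 mean a shift toward the mitochondrial gene: the phenylalanine pairs lie furthest left and the tyrosine pair furthest right among those without overlap.

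Some members lie side by side. HARS1 and HARS2 are divergent neighbours on chromosome 5, and 437 exonic bases of each are exonic in the other on the opposite strand. Of the 31-base words of their transcripts, 5.02% of those of HARS1 occur in HARS2 and 9.805% of those of HARS2 in HARS1. HARS2 rose and HARS1, with 0.084, was not called, and the difference between them overlapped between the groups (HARS1 less HARS2 was 0.49, 0.35 and 0.45 in SOX2-KO and 0.53, 0.48 and 0.56 in Control). EPRS1 and IARS2 are neighbours on chromosome 1, where EPRS1 ends at 220046658 and IARS2 starts at 220094102. Both had higher values in all 3 SOX2-KO libraries while the genes around them changed by medians of −0.20 and −0.19, and with that taken off both were called higher.

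Genes listed around the delivery of charged tRNA in the cytosol mostly rose. Of these 12 genes, 8 rose and 3 fell (median log2 0.30). That is 91.7% called, beside 57.8% of all genes, 25% higher and 32.9% lower. Besides genes of tRNA export, proofreading and delivery, the list holds the translocation factor EEF2 and TRNT1, an enzyme of tRNA maturation. Both are named here to describe the list, and both rose (log2 0.52 and 0.32). TRNT1 is also in the mitochondrial list below. EEF1A1, the elongation factor that brings charged tRNA to the ribosome, had 11396, 12221 and 11889.5 CPM in SOX2-KO and 6442, 6757 and 6416 CPM in Control (1.81-fold higher, log2 fold change 0.86 ± 0.073, adjusted p = 1.47e-05). It has many near-identical processed copies in the genome, so its estimate is uncertain. EEF1D, a subunit of its exchange factor, to which VARS1 binds, had 222, 229 and 231 CPM in SOX2-KO and 135, 126 and 138 CPM in Control (1.71-fold higher, log2 fold change 0.77 ± 0.043, adjusted p = 1.64e-06). XPOT, the tRNA exporter of the nucleus and itself an ATF4 target, had 720.5, 808 and 778 CPM in SOX2-KO and 1094, 1130.5 and 1130.5 CPM in Control (1.46-fold lower, log2 fold change −0.54 ± 0.051, adjusted p = 2.6e-05). With its neighbours' median of −0.28 taken off it was still called, at log2 −0.27 (adjusted p = 0.000834, range 1.06e-05 to 0.000834).

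Of 11 genes that complete charging or deliver tRNA in mitochondria, 5 rose and 2 fell (median log2 0.057), a share called of 63.6%, near the 57.8% of all genes. GATB, a subunit of the amidotransferase that turns the glutamate placed by EARS2 into glutamine, had 35.7, 32.9 and 34.8 CPM in SOX2-KO and 13.04, 14.5 and 13.05 CPM in Control (2.54-fold higher, log2 fold change 1.29 ± 0.069, adjusted p = 1.25e-06). The other subunits did not rise with it. QRSL1 was not called (log2 fold change 0.052, 95% interval −0.068 to 0.17). GATC, named to complete the enzyme, was 1.23-fold lower (adjusted p = 0.000625), with neighbours at a median of −0.33. TUFM, the mitochondrial factor that delivers charged tRNA, averaged 309 ± 6.55 CPM in SOX2-KO and 225 ± 10.3 CPM in Control (SD, n = 3 each, 1.38-fold higher, limma adjusted p = 2.65e-05). TSFM, its exchange factor, averaged 74.989 ± 2.58 CPM in SOX2-KO and 43.3 ± 2.27 CPM in Control (1.73-fold higher, adjusted p = 4.46e-06). GFM1, the translocation factor, was not called (log2 fold change 0.057, 95% interval −0.048 to 0.16). Of 6 genes of the selenocysteine route, which starts from serine placed by SARS1, 2 rose and 1 fell (50% called). EEFSEC, the elongation factor of that route, rose to 60.8 ± 2.48 CPM in SOX2-KO, against 32.2 ± 0.778 CPM in Control (SD, n = 3 each, limma adjusted p = 1.59e-06). SEPHS2, which makes the selenium donor, averaged 136 ± 9.22 CPM in SOX2-KO and 161 ± 3.30 CPM in Control and fell (adjusted p = 0.00347), and its relative SEPHS1 averaged 100.4 ± 5.38 CPM in SOX2-KO and 85.4 ± 2.08 CPM in Control and rose (adjusted p = 0.00296).

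ATF4 mRNA rose while its listed targets were divided. ATF4 had 715, 763 and 736 CPM in SOX2-KO and 507, 476 and 472 CPM in Control, with no overlap (1.52-fold higher, log2 fold change 0.61 ± 0.045, adjusted p = 7.36e-06). Of 31 target genes other than synthetases, 12 rose and 11 fell (median log2 0.046), a share called of 74.2% beside 57.8% of all genes, 25% higher and 32.9% lower. With the neighbourhood taken off, 17 rose and 8 fell, beside 27.9% higher and 27.7% lower among all genes. JDP2, a transcription factor gene, rose 2.75-fold to 17.97 ± 1.58 CPM in SOX2-KO, against 6.53 ± 0.414 CPM in Control (SD, n = 3 each). ASNS, the asparagine synthetase gene, rose 1.97-fold. SLC7A5, an importer of large neutral amino acids, was 1.83-fold lower, with 889, 983 and 931 CPM in SOX2-KO and 1810.4, 1665 and 1649 CPM in Control. Of 16 genes of eIF2, its kinases, its exchange factor and their regulators, 6 rose and 8 fell (median log2 −0.17). That is 87.5% called, beside 57.8% of all genes. ATF4 is itself on this list and is counted among the 6. EIF2B3 and EIF2B5, subunits of the eIF2 exchange factor, were 2.35-fold and 1.62-fold lower (adjusted p = 2.05e-06 and 6.27e-06), and EIF2AK2, the kinase PKR, was 1.87-fold higher (4.42e-06). The subunits of that factor were divided. Named to complete it, EIF2B1 was 1.22-fold lower, and EIF2B2 and EIF2B4 were 1.49-fold and 1.18-fold higher (adjusted p = 0.000265, 0.000524 and 0.00299). The neighbours of EIF2B1 and EIF2B4 changed by medians of −0.35 and 0.29. With its neighbours' median of −0.33 taken off, EIF2B5 was still called, at log2 −0.35, against −0.68 without that step (adjusted p = 0.000161, range 3.88e-06 to 0.000161).

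EIF2AK4, which encodes GCN2, the sensor of uncharged tRNA, was named for that role after its values were seen. It had 97.3, 90.2 and 87.6 CPM in SOX2-KO and 104, 107 and 106 CPM in Control (1.15-fold lower, log2 fold change −0.21 ± 0.047, adjusted p = 0.00469), and with its neighbours' median of −0.24 taken off the sign turned and the call was lost (log2 0.033, adjusted p = 0.614, range 0.00103 to 0.614). Of 12 interferon-induced genes listed beside WARS1, only 5 had values in the data, and all 5 passed the filter. Of these 5, 2 rose and 1 fell, a share called of 60%, near the 57.8% of all genes. MX1, an antiviral GTPase, averaged 4.25 ± 0.657 CPM in SOX2-KO and 1.92 ± 0.531 CPM in Control and rose (SD, n = 3 each, limma adjusted p = 0.00184). ISG15, a ubiquitin-like protein, averaged 12.3 ± 0.201 CPM in SOX2-KO and 15.9 ± 1.74 CPM in Control and fell (adjusted p = 0.0102). With the neighbourhood taken off ISG15 was not called (adjusted p = 0.394, range 0.00324 to 0.394).

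TARS3, a second cytosolic threonine enzyme gene that is not on the member list, had 7.86, 8.44 and 7.94 CPM in SOX2-KO and 11.3, 11.2 and 9.65 CPM in Control (1.32-fold lower, log2 fold change −0.36 ± 0.093, adjusted p = 0.00851). With the neighbourhood taken off its sign turned and the call was lost (log2 0.16, adjusted p = 0.176, range 0.00723 to 0.176).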

How the data were processed

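RNA-seq of 3 SOX2-KO and 3 Control libraries of CWR-R1 cells was analysed from 1 deposited table of CPM values for 16949 Ensembl genes. Per the values in the deposited file, the authors scaled each CPM column to a total of 1000000 over the listed genes. The submitters' processing notes name kallisto 0.43.1, edgeR 3.22.2, STAR, Trimmomatic 0.38, CASAVA 1.8, Picard, FastQC and SAMtools, and the builds hg38 and GRCh38.p12, without saying what each did. The choice of genes in the table is not given in the sources used here. From 26.6% to 28.4% of the values were whole reads within 0.001 of a read, so whole counts could not be rebuilt, and the main test was not a count model.

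Genes with a mean under 1 CPM were set aside, and log2(CPM + 1) of the other 15927 was fitted by limma 3.58.1 in R 4.3.3, with a trended variance prior, group as the only term, and Benjamini-Hochberg adjustment over all of them. Folds are ratios of mean CPM, and every log2 change carries the pseudocount of 1. Names came from the current gene table, and coordinates from GENCODE 29, which lists 16000 of the genes. No pair of replicates was as alike as counting alone would make it (median chi-square per gene 0.849 to 1.84, beside 0.455 from counting). Alternatives were pseudocounts of 0.1 and 0.5, no filter, a filter of 5 CPM, quantile normalisation, median-ratio scaling, a block for the replicate number, leaving out each library, subtraction of the chromosomal neighbourhood (the median over 25 genes on each side) and limma-voom on estimated reads. Genes named are all members, SOX2, ATF4 and, from each list, up to 3 called genes of smallest p and up to 2 not called of highest mean; others are said to be outside this rule or completing a list. Some genes that this rule or a list holds are not reported here. The members and lists were chosen with earlier results of these data known.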

Additional observations from a re-analysis of the deposited data

How the results depend on the processing

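Of the 35 members, 14 kept their direction and their side of the threshold under all 15 alternatives, QARS1, GARS1, SARS1, YARS1, RARS1, KARS1, MARS1, FARS2, LARS2, WARS2, RARS2, HARS2 and MARS2 among those called and FARSB among those not called. Cytosolic genes called higher and lower were 6 to 7 and 4 to 5 with 1 library left out, and mitochondrial genes 6 to 8 and 2 to 3. Over all genes, 3515 to 3880 were called higher and 4606 to 5169 lower with 1 library left out, and median-ratio scaling gave 4572 higher and 4512 lower. Subtracting the chromosomal neighbourhood left 2 cytosolic and 1 mitochondrial genes called lower, 1 ATF4-listed and 1 other cytosolic synthetase, 2 of class I and 1 of class II, 1 of the genes of mitochondrial charging and delivery and 0 interferon-induced genes, and 1 scaffold gene, EEF1E1, became called lower; the cause was not tested. Interferon-induced genes called higher were 1 with the filter of 5 CPM, and those called lower numbered from 1 to 2 with 1 library left out.

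Signs that turned, as log2 fold changes, were LARS1 0.014, TARS1 0.019, VARS1 0.016, NARS2 0.039 with median-ratio scaling, EPRS1 −0.00402, VARS1 0.035, NARS2 0.063, PARS2 0.010 with quantile normalisation, and TARS1 0.087, CARS2 0.11, PARS2 0.035, AIMP1 −0.068, AIMP2 −0.038, TARS3 0.16, EIF2AK4 0.033 with the neighbourhood subtracted. With 1 library left out they turned for VARS1 (from −0.11 to 0.053), NARS2 (−0.064 to 0.044), PARS2 (−0.15 to 0.012), TARS2 (−0.020 to 0.064), VARS2 (−0.23 to 0.084) and AIMP2 (−0.065 to 0.086). All of these but CARS2, EIF2AK4 and TARS3 were not called to begin with. Calls of IARS2 were also lost with a pseudocount of 0.1 (0.0501), no filter (0.0506) and limma-voom (0.0521), and that of CARS2 with median-ratio scaling (0.263) and quantile normalisation (0.356).

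Libraries with the same replicate number did not deviate together (correlations of −0.0446, 0.0383 and −0.0135 for numbers 1, 2 and 3), so the numbers do not pair them. With the replicate block 3775 genes were called higher and 4952 lower, with 7 and 5 cytosolic and 7 and 2 mitochondrial genes. CARS1 was then called (0.0329), and CARS2 (0.0818) and IARS2 (0.05005) were not. The pair differences moved by less than the spread between replicates with a pseudocount of 0.1 and with any 1 library left out. With the neighbourhood of both genes subtracted, an alternative chosen after seeing the data, 9 of the 17 moved by more, to −0.13 (AARS1-AARS2), 0.036 (CARS1-CARS2), 0.048 (EPRS1-EARS2), −0.33 (FARSA-FARS2), −0.38 (FARSB-FARS2), 0.0021 (MARS1-MARS2), 0.084 (NARS1-NARS2), −0.17 (TARS1-TARS2), −0.70 (WARS1-WARS2). Depth limits PARS2 most, and with 3 libraries a group no permutation test can pass 0.05.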
